A study of Mus musculus with 30 samples.

Results

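Cells lacking Rubcn were compared 4 h and 30 min after they were given ovalbumin (OVA) protein, over 14808 genes of the 25611 in the deposited count table. The comparison used 6 of the 30 libraries of the series, 3 at each time, and its members were taken from the sample titles by genotype, treatment and time. The cells were mouse dendritic cells, differentiated from bone marrow with FLT3L at 200 ng/ml over 6 to 7 days, a culture that makes plasmacytoid and both conventional kinds of dendritic cell. Both groups carried the Rubcn knockout (KO), both had OVA protein, and they differed in time. The series also holds wild-type (WT) cells under the same treatments, untreated cells of both genotypes with no time given, and cells fed apoptotic cells of the human Jurkat T-cell line. The labels do not say whether the 3 libraries of a group came from separate mice or cultures, so the spread between libraries behind the p-values may be technical. For the tests of single genes that spread was estimated over all 30 libraries in 10 groups, not over the 6 compared alone. The labels give no strain, age or allele, no dose or purity of the OVA, and no untreated sample kept for 4 h beside the treated ones.

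Rubcn encodes Rubicon, which binds the class III PI3-kinase complex, holds back canonical autophagy and is needed for LC3-associated phagocytosis, in which LC3 is joined to the membrane of a phagosome. Dendritic cells that meet antigen together with a microbial or inflammatory signal typically switch on NF-kB target genes first, secrete chemokines and cytokines, and then, through interferon made by the cells themselves, express interferon-stimulated genes. Interferon-stimulated genes are driven by a STAT and IRF9 complex, which binds a DNA element called ISRE. OVA itself is a model antigen whose peptides are presented on MHC class I and class II.

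Total counts were 9.73 M in library 3 at 30 min and 38.7 M to 51.2 M in the other 5 libraries. Values below are CPM, counts scaled to library size with TMM factors, which correct for RNA composition, and CPM compares 1 gene between libraries and not levels between genes. A count of 3, taken as the floor of detection, corresponded to 0.29 CPM in library 3 at 30 min and to 0.0551 to 0.0731 CPM in the other 5. Fold changes are on the log2 scale from edgeR's quasi-likelihood test over all 14808 genes, and a gene is said to rise or fall where its Benjamini-Hochberg adjusted p, the FDR, was under 0.05. Rubcn (chr16:32821702-32868366) had 74.7, 74.7 and 73.0 CPM at 30 min and 71.3, 72.0 and 70.4 CPM at 4 h, and it did not pass the test (log2 change -0.06, FDR 0.482). In WT it had 81.3 to 93.0 CPM over the 6 OVA libraries, so every KO library lay below every WT library, with most of the RNA still counted. The deleted part of the gene is not given in the sources used here, and a count over the whole gene checks the genotype only in part.

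Between 30 min and 4 h, 963 genes rose and 930 fell in KO cells. That is 12.8% of the genes tested, 6.5% higher and 6.28% lower, and the median log2 change of all tested genes was 0.00. The changes were mostly small, with a median log2 change of 0.27 among genes that rose and -0.21 among those that fell, and the large ones were rises. At 5 CPM or more in the higher group, 33 genes rose at least 2-fold and 1, Sfrp4, fell at least 2-fold. With each of the 6 libraries left out in turn, 825 of the 1893 calls were kept in all 6 fits, 429 higher and 396 lower. Library 2 at 30 min, and library 3 to a lesser degree, stood apart by high counts of Sfrp4, Igfbp3 and Mmp13. Some results, not all, are therefore also given without 1 or both of them. The count of calls was 1246 without library 2 at 30 min and 1242 without library 3 at 4 h.

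Rises were ranked among genes with an FDR under 0.05, a mean of 5 CPM or more in the higher group and groups apart. Placeholder symbols such as Gm or Rik were passed over. The 10 largest rises were Rsad2, Cxcl10, Acod1, Ifit1, Cxcl9, Ifit1bl1, Ifit3, Oasl1, Ifit2 and Isg15, 6 of them in the list of interferon-stimulated genes. Marco, given below, rose by more (log2 change 3.55) at a mean under 5 CPM. Rsad2 (chr12:26442743-26456452), which encodes the antiviral enzyme viperin, had 4.50, 3.48 and 5.70 CPM at 30 min and 46.9, 39.8 and 42.2 CPM at 4 h. The groups were far apart, with a log2 change of 3.35 ± 0.53 (SE, n = 3 and 3, edgeR FDR 9.19e-05). Cxcl10 (chr5:92346639-92348889), a chemokine that draws T cells and NK cells, went from 3.46, 2.93 and 3.48 CPM to 36.4, 23.8 and 30.0 CPM, a log2 change of 3.22 ± 0.56 (edgeR FDR 0.000276). Acod1 (chr14:103047012-103056573), which makes itaconate from an intermediate of the citric acid cycle, went from 5.54, 6.36 and 5.50 CPM to 48.8, 41.3 and 51.1 CPM, a log2 change of 3.0 ± 0.39 (edgeR FDR 5.82e-06). By the rule of choice, none of these genes had overlapping libraries of 30 min and 4 h. They differed in where they stood at 30 min: Acod1 was already above its 0.588 to 0.882 CPM in untreated KO cells, and Rsad2 lay within its untreated range of 3.29 to 5.99 CPM in all 3 libraries. Cxcl9, with 0.999, 0.700 and 1.26 CPM at 30 min and 9.96, 4.35 and 5.68 CPM at 4 h, passed the test (log2 change 2.93 ± 0.90, edgeR FDR 0.0289) but lost the call without library 1 or library 2 at 30 min or library 1 at 4 h (largest FDR 0.132).

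**Figure D1:**
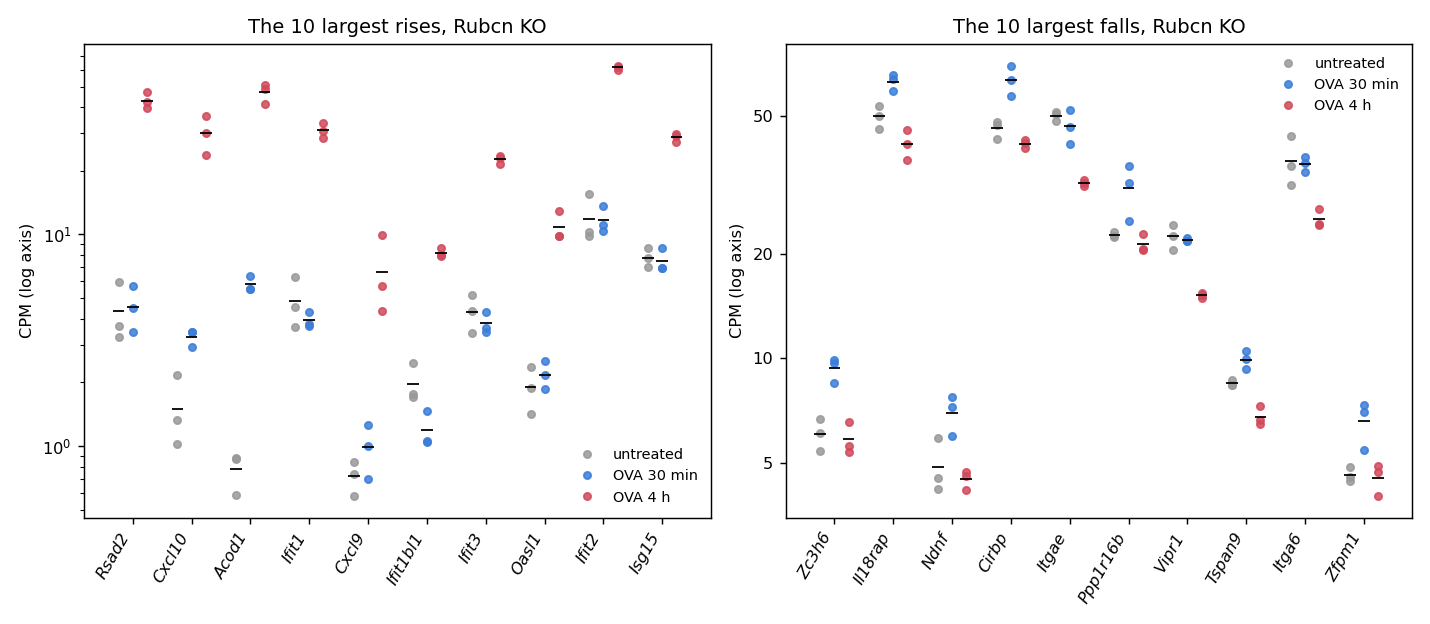
CPM on a log axis of the 10 genes with the largest rises (left) and the 10 with the largest falls (right) between 30 min and 4 h of OVA in Rubcn KO cells, 3 libraries per group, with bars at the group means. Both sets were ranked among genes with an FDR under 0.05, 5 CPM or more in the higher group and groups apart. At 4 h the rises lie far above 30 min and untreated, Rsad2 at 39.8 to 46.9 CPM against 3.48 to 5.70 CPM, while the falls are shifts of under 2-fold, Il18rap at 37.4 to 45.7 CPM against 59.0 to 65.5 CPM.

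Of the 49 interferon-stimulated genes tested (50 listed, Ifi44l not tested), 46 rose and 0 fell, with a median log2 change of 0.96 beside 0.00 for all genes and 6.5% of genes rising. The 3 others were Tgtp1 (log2 change 1.65, FDR 0.0995), Slfn1 (1.01, FDR 0.122) and Samhd1 (0.11, FDR 0.168). The rises kept their call in all 6 fits without 1 library for 37 of the 46. Ifit1 (chr19:34640889-34650009), which binds foreign RNA caps, had 4.32, 3.69 and 3.76 CPM at 30 min and 30.8, 28.7 and 33.6 CPM at 4 h (log2 change 2.96 ± 0.48, edgeR FDR 9.56e-05). Isg15, a ubiquitin-like modifier, went from 8.62, 6.95 and 6.95 CPM to 29.7, 29.2 and 27.3 CPM (log2 change 1.91 ± 0.36, edgeR FDR 0.000568). Both stood at 30 min near their untreated levels, which were 3.67 to 6.32 CPM for Ifit1 and 6.99 to 8.59 CPM for Isg15. Smaller changes were those of Irgm1 and Bst2. Irgm1, a GTPase that acts on pathogen vacuoles, went from 91.0, 80.7 and 82.0 CPM to 123, 132 and 132 CPM (log2 change 0.60, edgeR FDR 6.73e-05), and Bst2, which tethers budding virus, had a log2 change of 0.17 (edgeR FDR 0.0181). Other members of the antiviral set that rose were Oas2 (log2 change 1.01), which makes the activator of RNase L, Rtp4 (1.32), Usp18 (1.33), which removes Isg15 from proteins, Mx2 (1.05) and Ifi35 (0.44). Reads of near-identical copies, such as Ifit3 and Ifit3b or the Oas1 and Gbp genes, can be split between them in ways the sources used here do not give, so the values of single copies are uncertain.

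The interferon genes themselves were counted at or near 0. Of 21 genes for type I, II and III interferons, 15 had 0 counts in all 6 libraries, which at 3 counts allows up to the CPM floors given above. The sum of reads over all 21 genes was 5, 3 and 0 at 30 min and 10, 5 and 3 at 4 h, against 5, 4 and 2 in untreated KO libraries. Ifnb1, the interferon-beta gene, had 1, 2 and 0 counts at 30 min and 4, 1 and 0 at 4 h, so no change in it was detectable at this depth. WT libraries had 2, 1 and 0 counts of Ifnb1 at 30 min and 6, 11 and 4 at 4 h. Of the 21 receptor, STAT and IRF genes, 7 rose and 3 fell, 47.6% beside 12.8% of all genes, with a median log2 change of 0.07. Irf7, which amplifies interferon production, went from 72.1, 62.9 and 65.3 CPM to 124, 133 and 123 CPM (log2 change 0.92, edgeR FDR 0.000184). Stat2 (0.29) and Irf9 (0.22), which carry the interferon signal to the nucleus, also rose and kept their calls without each library. The receptor gene Ifnar1 fell by 0.13 on the log2 scale (edgeR FDR 0.0195), a call lost in 3 of the 6 fits, and the list as a whole had 5 calls in place of 10 without library 2 at 30 min.

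Promoters of 4 of the largest rises are shown because the letters of the element bound by the interferon-activated complex stand in them. Each line is the 250 bases before the start of transcription, 5′ to 3′ on the gene's strand, from RefSeq on GRCm38.p6. Rsad2 is at chr12:26456453-26456702 (minus strand), Ifit1 at chr19:34640639-34640888 (plus), Isg15 at chr4:156200819-156201068 (minus) and Cxcl10 at chr5:92348890-92349139 (minus). Capitals mark matches, on either strand, to GAAANNGAAA, the core of an ISRE in which the half-site GAAA stands 2 times with 2 bases between (TTTCNNTTTC on the other strand), overlapping matches included.
Rsad2: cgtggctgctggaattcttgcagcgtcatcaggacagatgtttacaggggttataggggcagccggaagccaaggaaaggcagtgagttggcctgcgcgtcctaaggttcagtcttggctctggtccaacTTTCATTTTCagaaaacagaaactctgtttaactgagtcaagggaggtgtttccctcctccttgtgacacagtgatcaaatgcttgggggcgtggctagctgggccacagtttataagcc
Ifit1: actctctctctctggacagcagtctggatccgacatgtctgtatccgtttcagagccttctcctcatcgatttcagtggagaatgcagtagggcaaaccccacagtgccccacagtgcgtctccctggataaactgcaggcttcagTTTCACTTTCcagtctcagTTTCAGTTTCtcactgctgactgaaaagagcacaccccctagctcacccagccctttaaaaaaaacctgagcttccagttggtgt
Isg15: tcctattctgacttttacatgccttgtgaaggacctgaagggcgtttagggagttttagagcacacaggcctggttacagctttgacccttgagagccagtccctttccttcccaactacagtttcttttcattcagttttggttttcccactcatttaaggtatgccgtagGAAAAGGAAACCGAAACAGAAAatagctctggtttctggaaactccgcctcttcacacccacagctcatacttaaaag
Cxcl10: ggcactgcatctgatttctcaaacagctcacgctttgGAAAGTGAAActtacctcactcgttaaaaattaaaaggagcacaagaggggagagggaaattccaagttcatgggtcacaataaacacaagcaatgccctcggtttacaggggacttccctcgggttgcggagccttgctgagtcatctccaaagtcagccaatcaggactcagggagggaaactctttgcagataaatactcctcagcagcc
The match begins 120 bases before the start in Rsad2 and 213 bases before it in Cxcl10. Ifit1 holds a pair, 104 and 85 bases before the start, and Isg15 holds 3 that overlap each other, at 78, 72 and 66 bases. In the 300-base windows of the table, which run from 250 bases before to 50 after the start, the ISRE letters stood in 6 of the 10 largest rises. They stood in 75 of the 783 matched promoters of genes that rose (9.58%) and in 10 of the 760 of genes that fell (1.32%). The share was 3.31% over the 11596 matched promoters of all tested genes and 3.44% over all 32851 promoters. For the interferon-stimulated list only 39 of 49 tested genes matched a promoter, and no share over that list is given. A match is a run of letters and not a measured binding site.

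Cxcl2 and Tnf, targets of NF-kB, lay above their untreated ranges in all 3 libraries at 30 min, which was not tested, and did not pass the test between 30 min and 4 h. Cxcl2, which draws neutrophils, had 0.315 to 0.501 CPM in untreated KO cells, 9.56, 9.86 and 7.72 CPM at 30 min and 9.72, 7.19 and 8.75 CPM at 4 h. The libraries of the 2 OVA times overlapped (log2 change -0.13, edgeR FDR 0.655). Tnf, the main early inflammatory cytokine, had 9.10 to 9.43 CPM untreated, 38.8, 36.8 and 42.6 CPM at 30 min and 40.1, 34.3 and 37.6 CPM at 4 h, again overlapping (log2 change -0.06, edgeR FDR 0.753). Cxcl1 had 2.85, 3.19 and 3.19 CPM at 30 min and 2.59, 1.66 and 2.15 CPM at 4 h, all 3 lower, but did not pass the test (log2 change -0.49, edgeR FDR 0.0997). Nfkbiz (log2 change -0.08, FDR 0.666) and Tnfaip3 (0.10, FDR 0.383), an IkB-like regulator and the A20 feedback enzyme, did not pass it either, nor did Il1b (0.08, FDR 0.799). Il12b, a subunit of IL-12, had 16.1 to 16.8 CPM untreated, 14.5, 20.3 and 15.8 CPM at 30 min and 22, 16.5 and 17.6 CPM at 4 h, with all 3 groups overlapping (0.14, FDR 0.842). These 7 genes were chosen after their values were seen and stand for no list.

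Of the 27 subunit, inhibitor and feedback genes of NF-kB, 13 rose and 0 fell, 48.1% beside 12.8% of all genes, with a median log2 change of 0.19. Of these rises 10 kept their call without each library. Ikbke (chr1:131254602-131279563), the kinase IKK-epsilon that acts upstream of IRF3, went from 18.3, 18 and 20.2 CPM to 49.4, 47.5 and 45.1 CPM, a log2 change of 1.35 ± 0.08 with the smallest FDR of any gene (edgeR, 1.04e-12). Untreated cells had 16.0 to 18.6 CPM of it, close to 30 min. Tnip1, which restrains NF-kB together with A20, went from 65.4, 63.5 and 63.9 CPM to 99.6, 91.4 and 96.9 CPM (log2 change 0.58). Nfkb2 (0.47) and Relb (0.41), the subunits of the non-canonical pathway, Nfkbie (0.43) and Birc3 (0.33) rose as well, whereas Rela (-0.04), Rel (-0.08) and Nfkb1 (0.12) did not pass the test. Of the 31 cytokine genes tested, 6 rose and 0 fell, 19.4% beside 12.8% of all genes, with a median log2 change of 0.08. Ebi3, a subunit of IL-27 and IL-35, went from 28.3, 29.4 and 30.0 CPM to 36.0, 33.1 and 35.2 CPM (log2 change 0.26) and was the only one of the 6 to keep its call without each library. Il15 (0.60), Tnfsf10 (0.79), Il1rn (0.42) and Lif (0.46) lost theirs in 1 to 3 of the fits, and the list had 2 calls without library 1 at 30 min or without library 1 at 4 h.

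Of the 23 chemokine genes tested, 12 rose and 0 fell, 52.2% beside 12.8% of all genes, with a median log2 change of 0.61, and 8 kept their call without each library. Ccl4, a chemokine of the CC family, went from 4.03, 3.65 and 3.19 CPM to 11.8, 8.97 and 9.77 CPM (log2 change 1.45 ± 0.24, edgeR FDR 0.000116). Ccl9 went from 151, 169 and 157 CPM to 270, 258 and 259 CPM (log2 change 0.72), and Cxcl16, which binds CXCR6, from 82.1, 88.4 and 84.0 CPM to 126, 117 and 125 CPM (0.53). Ccl2, which draws monocytes, went from 3.36, 3.63 and 3.28 CPM to 7.53, 6.49 and 5.41 CPM (0.91). For each of these the lowest library at 4 h lay above the highest at 30 min. Ccl12 (log2 change 2.0) and Cx3cl1 (0.49) also rose and kept their calls, and Ccl5 (0.07), of the CC family like Ccl4, did not pass the test.

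**Figure D2:**
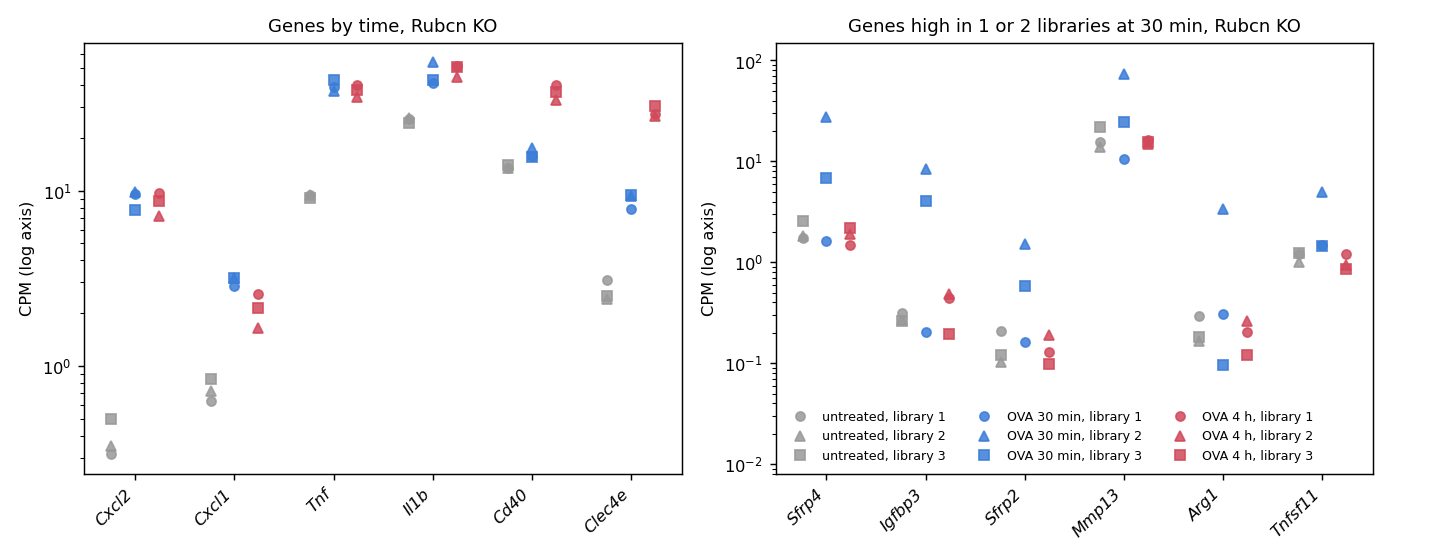
CPM on a log axis in each KO library, untreated and at 30 min and 4 h of OVA, with 1 marker shape per library number. On the left the libraries of 30 min and 4 h overlap for Cxcl2 and Tnf, while Cd40 and Clec4e climb further. On the right Sfrp4 and Mmp13 are highest in library 2 at 30 min, with 27.6 and 73.4 CPM.

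Of 30 genes for maturation, co-stimulation and migration 6 rose and 0 fell, 20% of the list beside 12.8% of all genes called and 6.5% rising, with a median log2 change of 0.16. Cd40 (chr2:165055636-165071654), the receptor for T-cell help, went from 15.7, 17.5 and 15.5 CPM to 39.7, 33.0 and 36.3 CPM (log2 change 1.15 ± 0.28, edgeR FDR 0.00606). Fas (0.76), the adhesion ligand Icam1 (0.47) and Marcksl1 (0.70) rose and kept their calls without each library. Cd86 (-0.09), Cd80 (0.21), which both bind CD28 on T cells, and Ccr7 (-0.05), the receptor that leads dendritic cells to lymph nodes, did not pass the test. For the presentation of antigen on MHC class I, 9 of 25 genes tested rose and 0 fell, 36% beside 12.8% of all genes, with a median log2 change of 0.10. Of these 9 rises, 5 kept their call without each library, and the list had 6 rises without library 2 at 30 min. H2-K1, a class I heavy chain whose b allele presents an OVA peptide, went from 847, 878 and 898 CPM to 994, 971 and 1011 CPM (log2 change 0.18, edgeR FDR 0.00117). B2m, its light chain, went from 1025, 982 and 1014 CPM to 1163, 1177 and 1183 CPM (0.22), and Nlrc5, which switches on class I genes, changed most in the list (0.44). Tap1 (0.03) and Tap2 (0.06), which carry peptides into the endoplasmic reticulum, did not pass the test. Of 19 genes of the MHC class II pathway 0 rose and 2 fell, March1 (-0.21) and H2-DMb1 (-0.12), and neither call was kept in all fits: the list had 0 calls without library 1 or 3 at 30 min or without any 1 library at 4 h, and 1 without library 2 at 30 min. A share of 2 in 19 is close to the 12.8% of all genes.

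Receptors for particles and microbes included some of the steepest rises. Of 26 endocytic and C-type lectin receptors 8 rose and 0 fell, 30.8% beside 12.8% of all genes, with a median log2 change of 0.08. Marco (chr1:120474538-120505084), a scavenger receptor for bacteria and particles, went from 0.326, 0.459 and 0.676 CPM to 4.83, 4.42 and 5.66 CPM, a log2 change of 3.55 ± 0.36 (edgeR FDR 1.94e-07). Clec4e, the mycobacterial glycolipid receptor Mincle, had 2.41 to 3.11 CPM untreated, 7.85, 9.31 and 9.46 CPM at 30 min and 27.3, 26.6 and 30.5 CPM at 4 h (log2 change 1.69 ± 0.22). It was thus above its untreated range at both times. Its partner Clec4d went from 38.0, 41.6 and 38.6 CPM to 66.5, 65.7 and 66.8 CPM (0.75), and Clec4a1 (0.45) and Clec4a3 (0.50) rose too, while Mrc1 (-0.26), Clec9a (-0.11) and Ly75 (-0.11) did not pass the test. Fpr1 (2.08) and Fpr2 (2.35), the formyl peptide receptors, the acute-phase gene Saa3 (2.43), Slamf8 (1.04) and the mitochondrial dismutase Sod2 (0.48) were further rises, named after their values were seen. Slamf8 went from 16.0, 15.5 and 14.5 CPM to 33.1, 31.0 and 31.7 CPM. Of 28 pattern recognition receptors and adaptors 6 rose and 0 fell, 21.4% of the list beside 12.8% of all genes called and 6.5% rising, with a median of 0.08. Among them were Tlr1 (0.44) and Tlr2 (0.18), which pair to sense bacterial lipopeptides, Nod2 (0.34), whose call was lost without library 1 at 30 min, Irak3 (0.28) and Ticam2 (0.21). Tlr4 (-0.11), the receptor for endotoxin, did not pass the test. Of 16 inflammasome and pyroptosis genes 5 rose, with Mefv at 0.55, Nlrc4 at 0.25, Casp4 at 0.53, Casp1 at 0.22 and Gsdmd at 0.15, and 2 fell, with Nlrp1b at -0.44 and Gsdme at -0.33, 43.8% of the list beside 12.8% of all genes, with a median of 0.04. The calls of Casp1, Casp4, Gsdmd and Gsdme were not kept in all fits, and the list had 4 calls without library 1 and 3 without library 2 at 30 min.

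**Figure D3:**
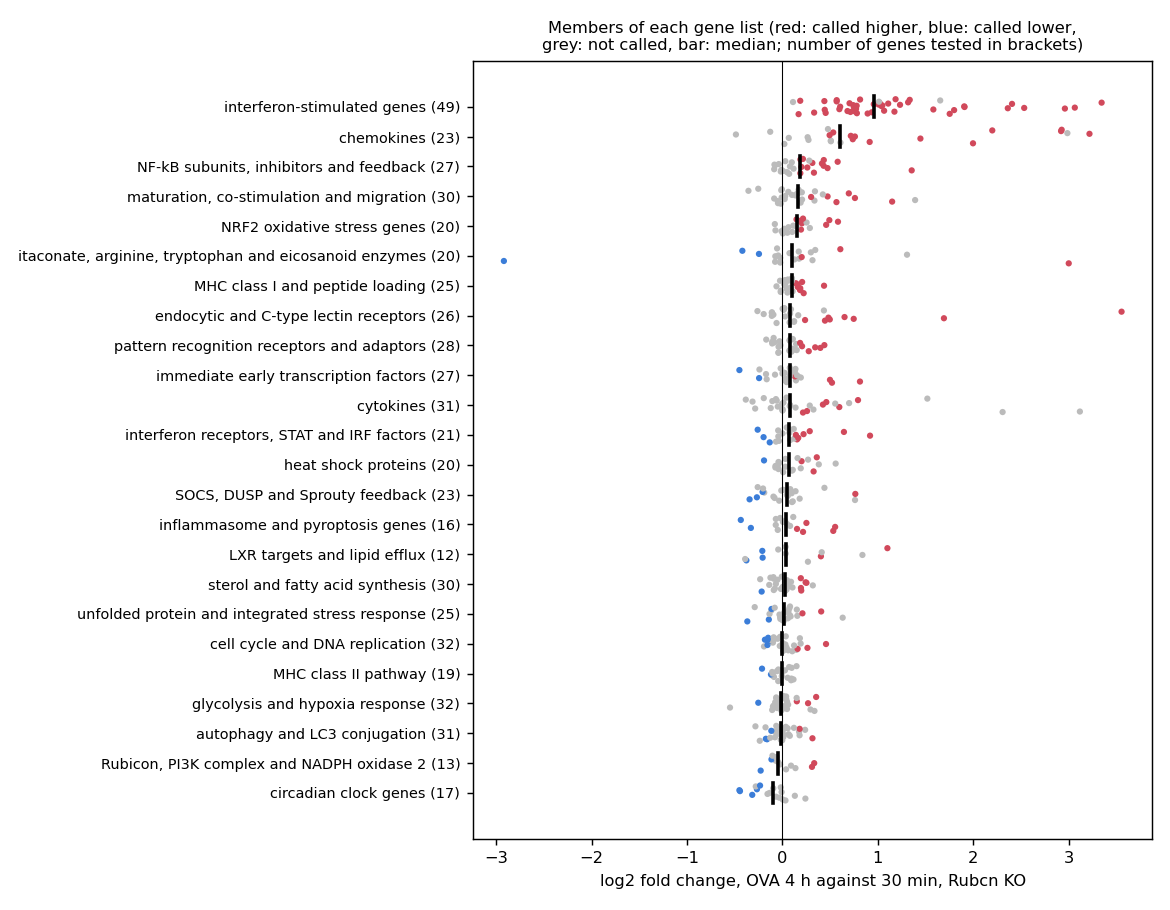
Log2 fold change between 30 min and 4 h of OVA in Rubcn KO cells for every tested member of 24 gene lists, with the median of each list as a bar. The interferon-stimulated list is shifted as a whole (median 0.96), the chemokine list in large part (0.61), and most other lists have medians near 0.00 with single genes far out.

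Of 13 genes of the Rubicon and class III PI3-kinase complex and of NADPH oxidase 2, 2 rose and 2 fell, 30.8% beside 12.8% of all genes, with a median log2 change of -0.05 over members that went both ways. With only the groups compared in the fit 7 of the 13 were called. Cybb, the catalytic subunit of the oxidase that makes superoxide in phagosomes, went from 662, 587 and 660 CPM to 767, 783 and 814 CPM (log2 change 0.31, edgeR FDR 0.00186), and its regulator Ncf4 from 74.2, 81.4 and 77.4 CPM to 101, 92.9 and 99.3 CPM (0.33). Atg14, the subunit that directs the kinase complex to autophagosomes, fell from 25.3, 24.8 and 29.7 CPM to 22.2, 21.5 and 22.8 CPM (-0.23), and Rac1 fell by 0.12 on the log2 scale, a call lost in 3 fits. Becn1 (0.04), Pik3c3 (-0.05) and Uvrag (-0.11) did not pass the test. Of 31 autophagy and LC3 conjugation genes 2 rose and 3 fell, 16.1%, a share near the 12.8% of all genes (median -0.02). Atg16l1, which places LC3 on membranes, fell from 65.2, 69.1 and 70.9 CPM to 60.8, 59.6 and 60.6 CPM (-0.17, edgeR FDR 0.00169), and its relative Atg16l2 rose from 37.3, 34.3 and 36.4 CPM to 47.2, 43.9 and 42.8 CPM (0.31). The adaptor gene Sqstm1 (0.18) rose and Map1lc3b (-0.12) fell, both calls lost in some fits, and the list had 3 calls in place of 5 without library 1 at 4 h. Atg13 (-0.16), of the initiating kinase complex, fell and kept its call.

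The 10 largest falls with groups apart and 5 CPM or more at 30 min were all under 2-fold. Zc3h6, a zinc finger gene, went from 9.68, 9.88 and 8.49 CPM to 5.59, 6.57 and 5.36 CPM, a log2 change of -0.71 ± 0.10 (edgeR FDR 2.05e-05). Il18rap (chr1:40515362-40551705), a subunit of the IL-18 receptor, went from 64.0, 65.5 and 59.0 CPM to 41.5, 45.7 and 37.4 CPM (-0.61 ± 0.08, edgeR FDR 6.9e-06). Cirbp, a cold-inducible RNA-binding protein, went from 57.2, 63.5 and 70.0 CPM to 41.7, 42.6 and 40.6 CPM (-0.59). By the rule of choice, the highest library at 4 h lay below the lowest at 30 min in all 3. At 30 min Zc3h6, Il18rap and Cirbp stood above their untreated ranges of 5.39 to 6.70, 46.0 to 53.6 and 43.1 to 48.1 CPM. Itgae, which encodes the integrin CD103 found on type 1 conventional dendritic cells, went from 46.4, 52.2 and 41.6 CPM to 31.4, 32.1 and 32.7 CPM (-0.57 ± 0.09, edgeR FDR 7.4e-05), below its untreated range of 48.3 to 51.4 CPM. In bulk RNA fewer cells of a type and less RNA per cell cannot be told apart. Itga6 (-0.52), another integrin, Vipr1 (-0.53), a receptor for vasoactive intestinal peptide, Tspan9 (-0.52), the transcription cofactor Zfpm1 (-0.51), Ppp1r16b (-0.53) and Ndnf (-0.59) completed the 10 largest falls, and all 10 kept their call without each library.

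Falls of at least 2-fold were of another kind. There were 19 such genes, and 17 of their calls were lost without library 2 at 30 min, 1 (Styk1) being kept in every fit. Sfrp4, a secreted Wnt-binding protein of stromal cells, had 1.61, 27.6 and 6.85 CPM at 30 min and 1.47, 1.90 and 2.17 CPM at 4 h. Its fall of 2.81 on the log2 scale (edgeR FDR 0.0376) was one of 0.71 without library 2 at 30 min and turned to a rise of 0.18 (FDR 0.97) without libraries 2 and 3 at 30 min. Igfbp3, with 0.204, 8.48 and 4.05 CPM at 30 min and 0.441, 0.481 and 0.195 CPM at 4 h, behaved alike (-3.48, edgeR FDR 0.0435, and 0.88 with FDR 0.905 without both). Arg1, the enzyme that consumes arginine, had 0.306, 3.35 and 0.0965 CPM at 30 min and 0.202, 0.265 and 0.122 CPM at 4 h. Its value in library 3 at 30 min lay below the floor of 0.29 CPM there, and the values at 4 h were low. The fall of Arg1 by 2.92 (edgeR FDR 0.00179) shrank to 0.41 without library 2. Mmp13, a collagenase that was not among the 19, had 10.6, 73.4 and 24.7 CPM at 30 min and 16.2, 15.0 and 15.7 CPM at 4 h. Sfrp4, Igfbp3 and Mmp13 stood out in another library too, number 3 of WT at 4 h, with 25.7 CPM of Sfrp4 against 1.35 and 1.27 CPM in the other two. The libraries of 30 min and 4 h overlapped for each of these 4 genes in KO.

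Marker genes of the expected dendritic cells were present in every library. Summed over each list, type 1 conventional markers such as Xcr1 and Clec9a had 4832 to 5069 CPM at 30 min and 4823 to 4958 CPM at 4 h, type 2 markers 1693 to 1758 and 1716 to 1807 CPM, and plasmacytoid markers 2095 to 2430 and 2365 to 2449 CPM. An exact permutation test gave a two-sided p of 0.6, 0.4 and 0.2 for the 3 sums (n = 3 and 3), where 0.1 is the smallest the design allows. Of the 9 type 1 genes 1 rose, Irf8 (0.14), and 3 fell, Itgae (-0.57), Cadm1 (-0.22) and Wdfy4 (-0.18), 44.4% beside 12.8% of all genes called. Monocyte and macrophage markers summed to 4146, 4015 and 4219 CPM at 30 min and to 4825, 4739 and 4805 CPM at 4 h, a log2 difference of 0.21 with no overlap (exact permutation p = 0.1). In untreated KO libraries that sum was 4760, 4156 and 4106 CPM, the first of them within the range at 4 h. Of the 11 monocyte and macrophage genes 10 had positive changes (median 0.17). Those that rose were 5, Adgre1 (0.50), C1qa (0.60), C1qb (0.44), C1qc (0.39) and Lyz2 (0.24), 45.5% beside 12.8% of all genes called. Csf1r (0.12) and Mertk (-0.15) were among those that did not pass the test. Marco, Clec4e, Acod1, Ccl2 and the other rises of genes that macrophages express stand beside the difference in the monocyte and macrophage sum. The part of that difference in them was not tested. Stromal markers summed to 938, 1236 and 1106 CPM and to 1229, 1191 and 1134 CPM (exact permutation p = 0.5), none of the 12 at 0, with Sfrp4 apart as given above. T-cell (31.9 to 33.4 and 35.3 to 37.5 CPM), B-cell (24.7 to 25.6 and 26.4 to 29.3 CPM) and endothelial markers (43.0 to 45 and 50.8 to 53.7 CPM) were low, higher at 4 h with no overlap (exact permutation p = 0.1 each, n = 3 and 3). The endothelial sum rested on Kdr, the VEGF receptor, which rose (0.76, edgeR FDR 0.0453, lost without library 2 at 30 min with FDR 0.162), while the other 4 tested had negative changes that did not pass the test (median of the 5 -0.34). None of the 6 B-cell genes tested passed it. Of the 10 T-cell genes tested 1 rose, Cd4 (0.34), 10% beside 12.8% of all genes called. Cd3e (0.71, FDR 0.634) and Cd3g (0.06, FDR 0.96) did not pass the test. Erythroid markers were at 0.459 to 0.611 CPM at 30 min and 0.341 to 0.404 CPM at 4 h (exact permutation p = 0.1), with 6 of 8, the globins among them, at 0. NK-cell markers (2.79 to 3.28 and 2.43 to 2.84 CPM, Gzma at 0, p = 0.3), neutrophil markers (117 to 128 and 127 to 130 CPM, p = 0.3) and basophil and mast cell markers (71.4 to 79.2 and 69.5 to 77.4 CPM, p = 1) overlapped between the times, by the same exact permutation test.

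The same interval was read in WT cells, which share no library with the KO comparison. There 2212 genes rose and 2184 fell, 29.7% of the genes tested, 14.9% higher and 14.7% lower. Of the KO calls 1611 were also called in WT, which is 85.1% of the KO calls and 36.6% of the WT calls, and 1606 of them went the same way. The 5 that went opposite ways were Fgfbp3, Igfbp3, Sfrp2, Sfrp4 and Sgk1, and none of their calls in KO was kept in all fits. Among genes called higher in both, the log2 change was the larger in WT for 576 of 805, and among those called lower in both the fall was larger in WT for 610 of 801. Rsad2 went from a mean of 10.4 to one of 121 CPM in WT (log2 change 3.53) beside 4.56 to 42.9 CPM in KO (3.35), and their difference did not pass the interaction test (-0.19, edgeR FDR 0.97). Cxcl10 (3.83 in WT, 3.22 in KO, FDR of the difference 0.88) and Cd40 (1.98 and 1.15, FDR 0.51) did not either. In the interferon-stimulated list 48 genes rose in WT, with a median log2 change of 1.11 beside 0.96 in KO, and the smallest FDR for a difference was 0.626. The maturation list had 20 rises in WT and 6 in KO, with 0 differences called (smallest FDR 0.0958). A larger count of calls is not by itself a larger response. Of the 30 genes of that list, 29 had the higher log2 change in WT (median 0.32 in WT and 0.16 in KO). A difference of the list as a whole was not tested. A p that misses the threshold does not show that the genotypes respond alike.

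The interaction test called 2 genes, 0.0135% of those tested, Mmp14 and Ptges. Mmp14 (chr14:54431598-54442456), a membrane-bound metalloproteinase, had 53.5, 71.6 and 64.7 CPM at 30 min and 111, 101 and 104 CPM at 4 h in KO. In WT it had 50.4, 49.7 and 51.4 CPM at 30 min and 119, 127 and 133 CPM at 4 h. It rose in both (log2 change 0.74 ± 0.07 in KO and 1.32 in WT), by 0.58 less on the log2 scale in KO (edgeR FDR 0.00904). Ptges, which makes prostaglandin E2 and is named although its level is low, had 1.22, 1.82 and 0.965 CPM at 30 min and 1.97, 1.64 and 1.68 CPM at 4 h in KO, groups that overlap. In WT it had 0.728, 0.571 and 0.660 CPM at 30 min and 2.62, 2.85 and 2.78 CPM at 4 h, well apart. Its log2 change was 0.30 in KO (edgeR FDR 0.375) and 2.07 in WT, a difference of -1.77 (edgeR FDR 0.00904). Both calls were lost without library 2 of KO at 30 min (FDR 0.158 and 0.411), without library 2 of KO at 4 h (0.0566) and without library 2 of WT at 30 min (0.0792). With only the groups compared in the fit Mmp14 lost its call (-0.59, edgeR FDR 0.0558) and Ptges kept it (FDR 0.034). At an unadjusted p under 0.05 there were 1352 genes (9.13%), and DESeq2 called 40.

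**Figure D4:**
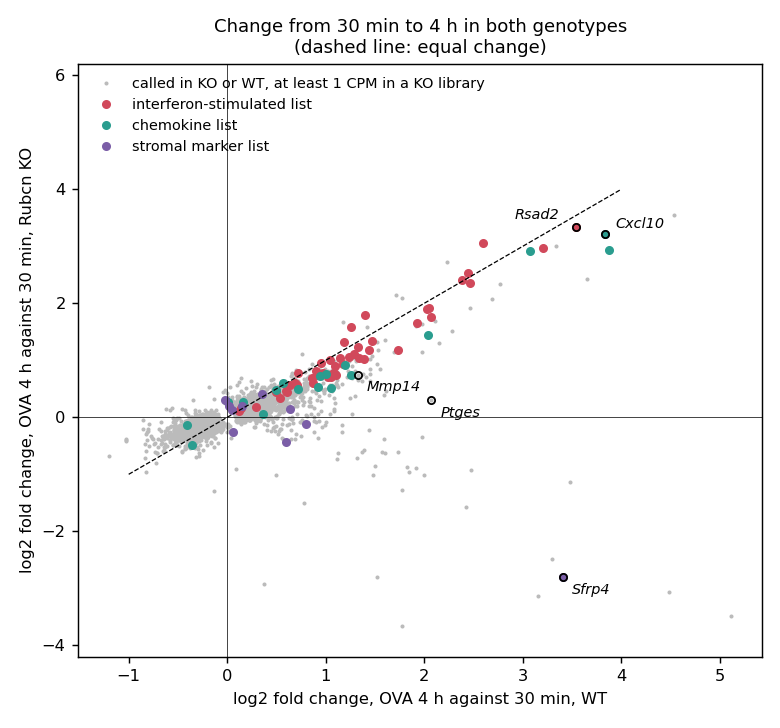
Log2 fold change between 30 min and 4 h of OVA in Rubcn KO cells against that in WT cells, for genes called in either and with at least 1 CPM in 1 of the 6 KO libraries, and for 3 lists. Of the interferon-stimulated genes 40 of 49 have the larger change in WT and lie below the line of equal change (median difference -0.16). Among all genes called higher in both genotypes the change is larger in WT for 576 of 805. Mmp14 (0.74 and 1.32) and Ptges (0.30 and 2.07) lie below the line too, and Sfrp4 and other genes high in single libraries lie at the lower right.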

How the data were processed

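Unnormalized counts were deposited in 1 table, in whole numbers, each row carrying a gene symbol, an Entrez identifier and an mm10 interval per the file headers. STAR 2.5, Subread, featureCounts 1.5.0-p1, DESeq2 and mm10 are named in the submitters' processing notes; what each did, the annotation, the strand setting and how reads shared by similar genes were handled are not stated there or in the labels. Groups and replicate numbers came from sample titles. Genes were kept with filterByExpr by group (14808 of 25611, holding 99.99% of counts), scaled with TMM and tested with edgeR 4.0.16 in R 4.3.3 (glmQLFit, glmQLFTest, 10 group means over 30 libraries, prior degrees of freedom 7.89). The SE is the log2 change divided by the square root of F. The filter keeps a gene that is high in any of the 10 groups, apoptotic Jurkat groups included. Marker lists were summed as CPM and compared with a two-sided exact permutation test. Same-numbered samples were not treated as pairs, as the labels give no shared animal, batch or day. Counting limits cover counting error only, since the libraries carry no molecular identifiers.

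The comparison, the 24 gene lists, the 12 marker lists and the promoter motifs were chosen with earlier results of these data known. Named genes are Rubcn, the 10 largest rises and falls (FDR under 0.05, 5 CPM or more in the higher group, groups apart), up to 5 members of each list by smallest p or, where none was called, its most abundant member, and genes of the interaction test. Others named for contrast, such as Tap1 or Ccr7, were picked after values were seen. Alternatives were DESeq2 1.42.0, DESeq2 size factors, total counts, other filters, fewer groups, a replicate block and leaving out libraries. Promoters matched by Entrez identifier for 11596 of the genes tested. Some members of the lists are counted but not reported by name here.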

Additional observations from a re-analysis of the deposited data

Results flagged for a closer look

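The change from 30 min to 4 h of OVA differed between genotypes, by an interaction test over all genes, in Mmp14 (KO minus WT log2 difference -0.58, edgeR FDR 0.00904) and Ptges (-1.77, edgeR FDR 0.00904). Over both genotypes Mmp14 had 49.7 to 71.6 CPM in the 6 libraries of 30 min and 101 to 133 CPM in those of 4 h, with no overlap. Its difference ranged from -0.71 to -0.46 with 1 library left out, and that of Ptges from -1.94 to -1.47, but both calls were lost in 3 of these fits (edgeR FDR up to 0.158 for Mmp14 and 0.411 for Ptges). Without libraries 2 and 3 of KO at 30 min, which leaves 1 library in that group, the difference was -0.34 for Mmp14 and -1.54 for Ptges. Mmp14 also lost its call with only the groups compared (edgeR FDR 0.0558).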

How the results depend on the processing

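The count of genes called in KO, 1893, was 1728 to 2641 with DESeq2, other scalings, other filters or fewer groups, 1242 to 1470 with 1 library left out, and 493 without libraries 2 and 3 at 30 min together, an alternative chosen after seeing the data that leaves 1 library at that time and assumes it varies like the other groups. The count of genotype differences, 2, became 40 with DESeq2, 22 with no filter on low counts, 3 with only the groups compared (Mmp14 lost), 7 in the 18 libraries without Jurkat cells, 0 to 64 with 1 library left out (0 without library 2 of KO at either time or of WT at 30 min) and 0 without libraries 2 and 3 of KO at 30 min. The cause was not tested. Deviations of same-numbered libraries from their group means correlated at -0.01, -0.027 and 0.013 in KO, and those of differently numbered ones at -0.045 to 0.068. These values cannot decide whether the numbers mark pairs, because counting error in each gene lowers such correlations. With a replicate block the KO count was 1993 over 30 libraries and 1922 over the groups compared, and the genotype differences numbered 10 and 18. Without libraries 2 and 3 at 30 min Igfbp3 (0.88) and Sfrp4 (0.18) turned sign, and the basophil sum, -0.01, ranged from -0.038 to 0.04 with 1 library left out, positive without library 1 at 30 min (0.037) or library 3 at 4 h (0.04). Without both libraries 18 interferon-stimulated genes were called in place of 46 and 6 chemokines in place of 12. With only the groups compared the calls numbered 12 in the maturation list, 7 in MHC class II, 12 in sterol synthesis, 9 in LXR, 14 in cell cycle, 7 in the Rubicon and 13 in the lectin list, in place of 6, 2, 6, 5, 9, 4 and 8. Of the named genes' changes over all alternatives, 2372 kept their direction and side of the threshold, 219 lost the call, 6 gained one and 2 turned sign. Depth limits genes near the floor, interferon genes above all.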

Other observations

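The shares below stand beside 12.8% of all genes called. Of 20 heat shock genes 3 rose and 1 fell, 20%, with a median log2 change of 0.07. Hsph1, a co-chaperone of the HSP70 system, had 58.0 to 61.2 CPM untreated, 45.7, 42.2 and 43.0 CPM at 30 min and 57.9, 54.0 and 56.3 CPM at 4 h (log2 change 0.36, edgeR FDR 0.000133), and Dnaja1 (0.33), another co-chaperone, had 52.6 to 54.8 CPM at 30 min and 61.6 to 64.3 CPM untreated, so both were lowest at 30 min. Of 20 NRF2 oxidative stress genes 8 rose and 0 fell, 40% (median 0.15). Srxn1, which repairs peroxiredoxins, went from 34.9, 41.0 and 38.4 CPM to 58.0, 49.2 and 53.0 CPM (0.49), but the list had 2 calls without library 1 at 30 min and 4 without library 1 or library 3 at 4 h. Of 25 unfolded protein and integrated stress genes 2 rose and 3 fell, 20% (median 0.02), and 2 or 3 were called without library 1 at 30 min or any 1 library at 4 h. Herpud1 (0.21) was among the rises and Asns (-0.37), asparagine synthetase, among the falls. Of 28 immediate early genes 27 were tested, and 4 rose and 2 fell, 22.2% (median 0.08). Egr1 had 31.3 to 38.0 CPM untreated, 17.5, 16.5 and 18.3 CPM at 30 min and 36.3, 26.8 and 27.3 CPM at 4 h (0.81, edgeR FDR 8.22e-06), whereas Nr4a1 had 15.9 to 17.2 CPM untreated, 22.7, 23.2 and 22.5 CPM at 30 min and 18, 15.8 and 16.3 CPM at 4 h (-0.45). The pair thus stood on opposite sides of the untreated level at 30 min. Of 23 SOCS, DUSP and Sprouty genes 1 rose, Socs1 (0.76, lost without library 1 at 30 min), and 3 fell, Dusp16 (-0.34), Dusp3 (-0.27) and Socs4 (-0.21, lost without the same library), 17.4% in all, with a median of 0.05.

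Among metabolic and housekeeping lists the share called ran from 12.5% to 41.7%. Nr1h3, the nuclear receptor LXR-alpha, went from 10.3, 10.1 and 9.17 CPM to 23.7, 19.2 and 21.6 CPM (log2 change 1.10 ± 0.13, edgeR FDR 2.33e-06). Of 12 genes of the LXR and lipid efflux list 2 rose, Nr1h3 and Apoe (0.40), and 3 fell, Mylip (-0.21), Abcg1 (-0.21) and Abca6 (-0.38), 41.7%, with a median of 0.03, and 2 or 3 were called without library 1 at 30 min or library 3 at 4 h. Of 30 sterol and fatty acid synthesis genes 5 rose and 1 fell, 20% (median 0.03), with Mvd at 0.24 and Acaca at -0.22, and 3 were called without library 2 at 30 min or library 3 at 4 h. Of 20 genes for itaconate, arginine, tryptophan and eicosanoid enzymes 3 rose, Acod1, Slc7a2 (0.61) and Kynu (0.20), and 3 fell, Arg1, Ptgs1 (-0.42) and Odc1 (-0.25), 30% with a median of 0.10, 3 being called without library 2 at 30 min. Of 32 glycolysis and hypoxia genes 3 rose and 1 fell, 12.5%, a share close to that of all genes (median -0.02), with Slc2a6 at 0.35 and Pdk1 at -0.25. Of 17 circadian clock genes 0 rose and 5 fell, 29.4% (median -0.10). Nr1d2, which encodes the repressor REV-ERB-beta, went from 20.2, 18.4 and 20.4 CPM to 13.6, 14.0 and 15.2 CPM (-0.45), and 3 of the list were called without library 2 at 30 min or library 3 at 4 h. Of 32 cell cycle and DNA replication genes 3 rose and 6 fell, 28.1% (median -0.00), and 6 of these calls were kept without each library. Mcm4, Mcm6 and Mcm7, subunits of the replicative helicase, fell by 0.14, 0.16 and 0.18 on the log2 scale, and Ccnd1 rose from 528, 497 and 501 CPM to 593, 610 and 626 CPM (0.26).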
